A study of Mus musculus with 2 samples.

Results

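The genes described here take heme apart, make it, and take up, store, release, export and sense iron. The set holds 10 genes, Hmox1, Blvrb, Fech, Tfrc, Steap3, Fth1, Ftl1, Ncoa4, Slc40a1 and Ireb2, out of 44291 genes in the deposited tables. They were chosen by name for their known roles, with earlier results of these data known. Each name matched 1 row in both tables. The cells were primary fibro-adipogenic progenitors (FAPs) of wild-type mice. FAPs are stromal cells of muscle and can turn into adipocytes. There were 2 RNA-seq libraries and 1 per group. The PRP group was treated with platelet-rich plasma and the control group with vehicle, and both were induced to adipogenesis in DMEM that held insulin (10 μg/ml), IBMX (0.5 mM), dexamethasone (0.25 μM) and FBS (20%). The growth medium had the same share of FBS, with antibiotics (2%). The labels name the treatment PRP, while the text of the study speaks of exosomes from the PRP of young human donors for its FAP transcriptome, so which of these the cells received is not settled here. The labels give no time of harvest, no age of the mice and no number of animals behind a culture.

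Heme oxygenase opens the heme ring and sets free iron, carbon monoxide and biliverdin, which biliverdin reductases turn into bilirubin. Cells bring in iron with transferrin through the transferrin receptor, reduce it in the endosome, store what they do not use in ferritin shells of heavy and light chains, and export iron through ferroportin. Iron regulatory proteins adjust this traffic by binding hairpins in mRNA, the iron-responsive elements. A protein bound near the start of an mRNA blocks its translation, whereas a protein bound behind the reading frame of transferrin receptor mRNA shields that mRNA from decay.

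The hairpins are shown because they have the shape of an iron-responsive element. GENCODE M21 transcripts were searched on the mRNA strand for the loop CAGTGN, closed by a stem of 5 base pairs with an unpaired C before it and by at least 4 pairs among the 6 positions further out. In the 5′ untranslated region (UTR), 6 of 20916 genes (0.0287%) held such a hairpin, among them the members Fth1, Ftl1 and Slc40a1. In the 3′ UTR it was found in 17 of 21707 genes (0.0783%), and of all of these Tfrc alone held 4. A match describes letters and not a bound site, and an element of another shape is missed by this search. The hairpins of Fth1, Ftl1 and Tfrc are given 5′ to 3′ with the loop in capitals, and that of Slc40a1 is not printed. Positions are from GRCm38 (mm10), where Fth1 and Tfrc lie on the plus strand and Ftl1 on the minus strand.

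Fth1, 5′ UTR, chr19:9982732-9982760: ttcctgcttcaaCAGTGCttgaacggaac

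Ftl1, 5′ UTR, chr7:45459779-45459807: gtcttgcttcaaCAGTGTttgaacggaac

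Tfrc, 3′ UTR, chr16:32631219-32631247: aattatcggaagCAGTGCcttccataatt

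Tfrc, 3′ UTR, chr16:32631598-32631626: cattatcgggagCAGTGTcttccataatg

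Tfrc, 3′ UTR, chr16:32631663-32631691: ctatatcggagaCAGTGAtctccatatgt

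Tfrc, 3′ UTR, chr16:32631710-32631738: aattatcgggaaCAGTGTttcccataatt

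All values are FPKM, a read count scaled to gene length and library depth, as computed by the authors. The PRP library held 40120843 assigned reads and the control library 34139741, and whole reads could be recovered for all 10 members. Each ratio of PRP over control is given with the bounds of a 95% interval for counting error, computed on fragments (reads divided by 2). These intervals compare 2 libraries and not 2 treatments, because neither group has a replicate, and no p-value is given. The log2 difference is log2(PRP FPKM + 1) minus log2(control FPKM + 1), which understates the difference of genes with low values. Genes averaging 1 FPKM or more over the libraries are called tested here, and its median over these 13401 genes was 0.01. Of the FAP and mesenchymal markers, 11 of 12 were tested, with Pdgfra at 19.8 FPKM with PRP and 28.0 FPKM without, and Ly6a at 59.9 and 66.4 FPKM, while Lum was near 0. All 11 were lower with PRP, as were 6586 of the 13401 genes tested. On the log2(FPKM + 1) scale 4 of the 11 were at least 1.5-fold lower, against 4.57% of all genes tested. These were Dpt (18.8 against 50.2 FPKM), Col3a1 (26.9 against 53.7 FPKM), Col1a1 (118.6 against 218.7 FPKM) and Gsn (79.6 against 138.6 FPKM). Mitochondrially encoded genes took 2.06% of all FPKM with PRP against 3.70% in the control. The part of either shift in the values of the iron genes was not tested.

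The members differed widely in level. In the control library Fth1 was highest, at 415.2 FPKM, followed by Hmox1 at 220.6 and Ftl1 at 205.5 FPKM, and then by Blvrb, Fech, Ncoa4, Tfrc and Ireb2 between 7.54 and 4.04 FPKM. Steap3 had 1.63 FPKM and Slc40a1 0.228 FPKM. Levels, places and quotients of different genes depend on the exon lengths used. The joined exons of Hmox1 span 1751 bases and its coding transcript 1569, and those of Ftl1 1340 and a coding transcript 968. The order of these 2 genes in the control library is therefore not firm. Tfrc and Fech exchanged places 7 and 5 in the PRP library, and the other 8 members held the same places. The intervals of Fech and Ncoa4, which were neighbours in both libraries, overlapped, and so did those of Ncoa4 and Tfrc in the control library. All 10 together took 0.318% of all FPKM with PRP and 0.257% in the control, and most of this excess was that of Hmox1, at 0.124% against 0.0650%.

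**Figure D1:**
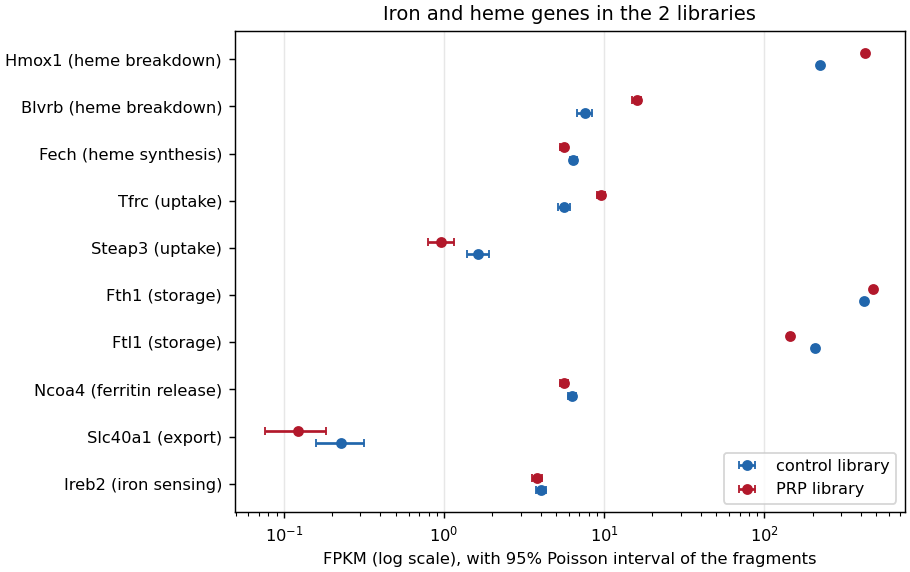
Level of each member in FPKM on a log axis, in the control library (blue) and the PRP library (red), with exact Poisson 95% intervals of the fragments as bars. Fth1, Hmox1 and Ftl1 lie above 100 FPKM in both libraries, and Slc40a1 lies below 1 FPKM in both.

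The heme breakdown genes had the 2 highest ratios among the members. Hmox1, which encodes the inducible heme oxygenase (ENSMUSG00000005413, chromosome 8, 75093621 to 75100589), had 424.0 FPKM with PRP and 220.6 FPKM in the control. It was thus higher with PRP, by a ratio of 1.92 (95% interval 1.87 to 1.98) from 29784 and 13190 reads, and held place 95 among all genes against place 216. Blvrb, a biliverdin reductase that also acts as a flavin reductase (ENSMUSG00000040466, chromosome 7, 27447978 to 27466144), had 15.97 FPKM against 7.54 FPKM, a ratio of 2.12 (1.87 to 2.40). With a pseudocount of 1 its log2 difference was 0.99 and that of Hmox1 0.94, both just short of a 2-fold difference, and they lay at percentiles 97.9 and 97.7 of all genes tested. The quotient of Hmox1 over Blvrb was alike in both libraries, at 26.5 with PRP and 29.3 without.

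The constitutive partners of this step did not share the difference. Hmox2, the constitutive heme oxygenase, was lower with PRP, at 23.6 against 28.4 FPKM (ratio 0.831, bounds 0.763 and 0.906). Hmox1 had 17.9 times the FPKM of Hmox2 with PRP and 7.76 times in the control. Blvra, the main biliverdin reductase of adult tissue, had 9.05 against 10.1 FPKM, and its interval of 0.785 to 1.03 included no change. Blvra was therefore above Blvrb in the control library and below it in the PRP library, with quotients of Blvrb over Blvra of 0.749 and 1.77.

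In heme synthesis the named enzymes were lower with PRP, while the list as a whole was mixed: of 12 genes tested the counting interval lay below 1 for 4, above 1 for 2 and included 1 for 6. Fech, the ferrochelatase that inserts iron into protoporphyrin as the last step of synthesis (ENSMUSG00000024588, chromosome 18, 64452914 to 64490251), had 5.58 FPKM with PRP and 6.41 FPKM in the control (ratio 0.871, bounds 0.811 and 0.935). Alas1, the first and rate-limiting enzyme outside the erythroid lineage, was also lower, with 11.5 against 14.5 FPKM (ratio 0.789, bounds 0.733 and 0.849). The quotient of Hmox1 over Fech was 75.9 with PRP and 34.4 in the control.

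The genes of iron uptake differed in opposite directions. Tfrc, the transferrin receptor (ENSMUSG00000022797, chromosome 16, 32608920 to 32632794), had 9.48 FPKM with PRP and 5.61 FPKM in the control, a ratio of 1.69 (1.53 to 1.87) and a log2 difference of 0.66 at percentile 95.3. It is the member with the 4 hairpins in its 3′ UTR shown above. Steap3, a reductase that turns endosomal ferric into ferrous iron (ENSMUSG00000026389, chromosome 1, 120190757 to 120272705), was lower, with 0.959 against 1.63 FPKM. Its ratio of 0.589 had a wide interval of 0.457 to 0.755, since it rests on 220 and 318 reads. Steap3 was among the genes tested only through its level in the control library.

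The ferritin chains diverged as well. Fth1, the heavy chain with the ferroxidase activity (ENSMUSG00000024661, chromosome 19, 9980598 to 9985098), had 478.5 FPKM with PRP and 415.2 FPKM in the control, a small excess (ratio 1.15, bounds 1.13 and 1.17) that many reads make precise. Ftl1, the light chain that helps iron to nucleate in the shell (ENSMUSG00000050708, chromosome 7, 45457944 to 45459884), was lower with PRP, at 145.1 against 205.5 FPKM (ratio 0.706, bounds 0.677 and 0.737). Its log2 difference of -0.50 lay at percentile 6.80, whereas that of Fth1, at 0.20, lay at percentile 74.3. The quotient of Fth1 over Ftl1 was 3.30 with PRP and 2.02 in the control, a 1.63-fold difference. The quotients themselves depend on the exon lengths used (the joined exons of Fth1 span 3469 bases and a coding transcript of it 929, those of Ftl1 1340 and 968), while their difference between the libraries does not.

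Ftl1 may share reads. The annotated gene Gm10252 on the opposite strand (chromosome 7, 45459469 to 45460300) covers 26.5% of the exon bases of Ftl1 and had 114.1 against 167.3 FPKM. Its ratio of 0.682 (0.642 to 0.725) was close to that of Ftl1. The kit keeps the strand, but whether the counting used it is not given in the sources used here, so reads of Ftl1 and Gm10252 may not be told apart. Copies of ferritin genes can share reads too. For Ftl1 these were Ftl1-ps1, annotated as protein-coding (6.07 against 7.57 FPKM), and 2 processed pseudogenes. The latter were Ftl2-ps (0.993 against 1.27 FPKM) and Ftl1-ps2 (2 and 4 reads). Together the copies held 3.96% and 3.53% of the reads of gene and copies in the PRP and the control library. Summed with its copies, Ftl1 had a ratio of 0.710 (0.680 to 0.740). For Fth1 the copies Fth-ps2, Fth-ps3 and Fth1-ps had at most 10 reads each in a library and left its ratio at 1.15.

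Release and export were less represented. Ncoa4, the receptor that delivers ferritin to autophagy so that its iron is released (ENSMUSG00000056234, chromosome 14, 32159865 to 32179855), had 5.60 FPKM with PRP and 6.29 FPKM in the control. Its ratio of 0.891 (0.816 to 0.972) was only just below 1 by counting error. Slc40a1, which encodes ferroportin, the only known cellular exporter of iron (ENSMUSG00000025993, chromosome 1, 45908068 to 45926523), was the lowest member in both libraries and rests on few reads. It had 0.122 FPKM with PRP and 0.228 FPKM in the control, from 44 and 70 reads, a ratio of 0.535 (0.299 to 0.938). As its mean was below 1 FPKM, it is not counted among the genes tested. Ireb2, the iron regulatory protein that is degraded when iron is plentiful (ENSMUSG00000032293, chromosome 9, 54863789 to 54912530), had 3.80 against 4.04 FPKM, and its interval of 0.846 to 1.05 included no change.

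**Figure D2:**
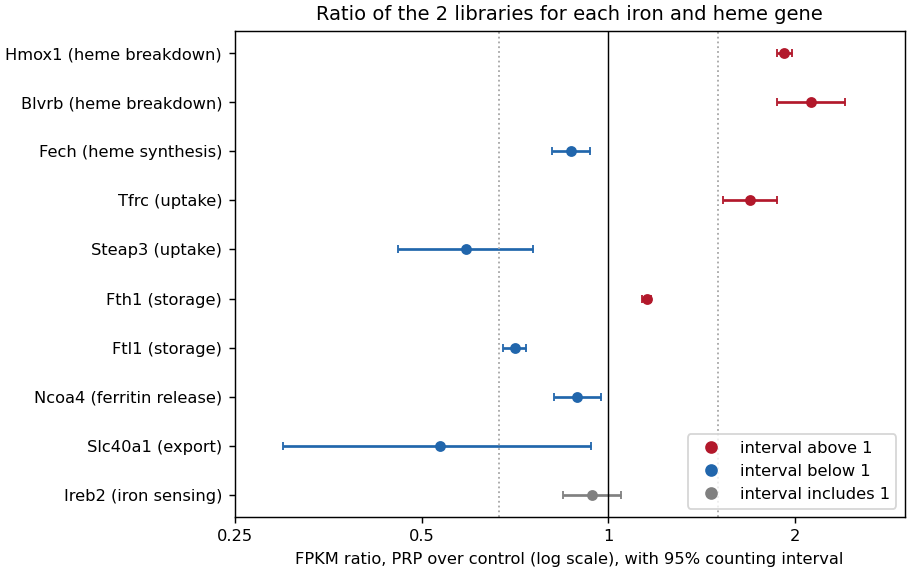
FPKM ratio of PRP over control for each member on a log axis, with the 95% counting interval as bars and dotted lines at a 1.5-fold difference. Hmox1, Blvrb and Tfrc lie wholly beyond the upper dotted line, Fth1 lies between it and 1, Ireb2 includes 1, and the other 5 lie below 1.

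Of the 10 members, 9 were tested, with a median log2 difference of -0.07 against 0.01 over all genes tested. A difference of at least 1.5-fold on the log2(FPKM + 1) scale was seen for 3 of the 9, Hmox1, Blvrb and Tfrc, all higher with PRP, where 6.15% of the 13401 genes were that much higher and 4.57% that much lower. Rescaling to a common sum of 1000000 also raised all values, from sums of 343024 FPKM with PRP and 339238 FPKM in the control. The added 1 therefore weighed less there. Under this rescaling Steap3 passed as well, which made 3 higher and 1 lower. With a pseudocount of 5 only 2 remained past 1.5-fold, without Tfrc. No member reached a 2-fold difference on this scale, which 2.00% of all genes did as higher and 0.828% as lower, although the linear ratio of Blvrb exceeded 2. The counting interval lay above 1 for 4 of the 9 and below 1 for 4, and it did so for 26.1% and 26.1% of the 12369 genes with an interval. Abundant genes have narrow intervals, and the members were chosen with earlier results of these data known. The members' shares are therefore not compared further.

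**Figure D3:**
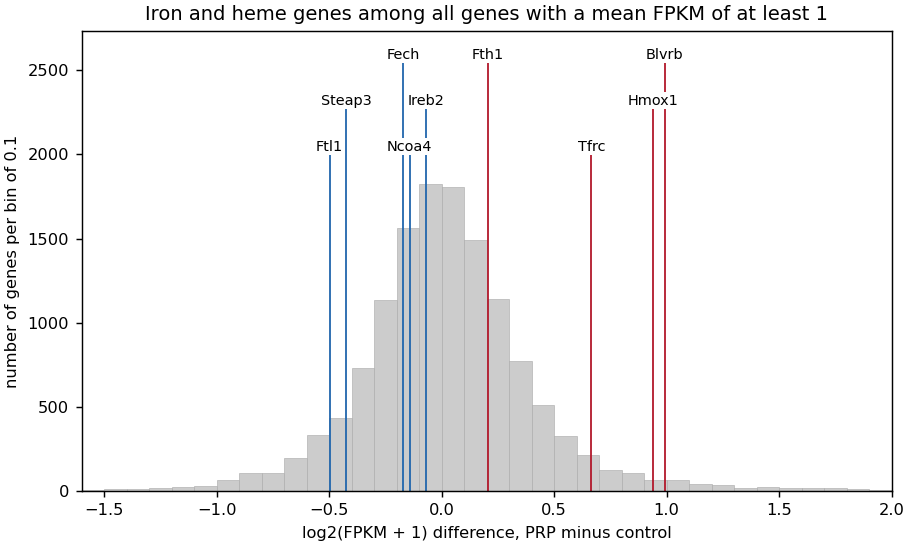
Number of genes in bins of 0.1 of the log2(FPKM + 1) difference, PRP minus control, for the 13401 genes averaging 1 FPKM or more, with the 9 members that passed as lines whose heights carry no value. Tfrc, Hmox1 and Blvrb stand in the upper tail at 0.66, 0.94 and 0.99, while the lowest members, Ftl1 and Steap3, stand at -0.50 and -0.42. The axis leaves out 40 genes beyond -1.6 and 2.

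Other genes of the same pathways gave a balanced picture. Of 87 genes in 7 lists by role, 69 were tested, 34 of them higher and 35 lower with PRP, and they had a median log2 difference of -0.002. Only Heph, Nfe2l2 and Bmp6 differed by at least 1.5-fold, all of them higher. Of all 13401 genes tested, 6.15% were that much higher and 4.57% that much lower. With the libraries rescaled to a common sum of 1000000, where the added 1 weighs less, 7 passed 1.5-fold, 3 higher and 4 lower. The counting interval lay above 1 for 22 of the 69, below 1 for 16, and included 1 for 31. Over the 12369 genes with an interval, it lay above 1 for 26.1% and below 1 for 26.1%.

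By role, Heph and Bmp6 belonged to the list of iron export and its hormone axis, and Nfe2l2 to that of iron and heme sensing. Heph encodes hephaestin, a membrane ferroxidase that works beside ferroportin, and had 6.86 FPKM with PRP and 2.60 FPKM in the control (ratio 2.64, bounds 2.33 and 2.99), the only gene of these lists past 2-fold. Cp, which encodes the ferroxidase ceruloplasmin, was lower, at 7.60 against 9.69 FPKM (ratio 0.784, bounds 0.730 and 0.842), so that Cp was 3.73 times as high as Heph in the control library and 1.11 times in the PRP library. Nfe2l2, whose product NRF2 is a known activator of Hmox1, Blvrb, Fth1 and Ftl1, had 57.0 against 32.5 FPKM (ratio 1.75, bounds 1.66 and 1.85). Bmp6, the signal by which liver endothelium raises hepcidin, had 4.001 against 2.22 FPKM (ratio 1.80, bounds 1.48 and 2.20).

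The other sensors differed less. Bach1, the heme-binding repressor of Hmox1, had 5.30 against 4.49 FPKM (ratio 1.18, bounds 1.05 and 1.33), and Mafg, its small partner protein, 10.3 against 8.27 FPKM (ratio 1.24). Aco1, the other iron regulatory protein, had 4.30 against 4.88 FPKM, and its interval of 0.763 to 1.02 included no change, as did that of Ireb2. Fbxl5, the ubiquitin ligase subunit that removes the protein of Ireb2, had 4.19 against 3.75 FPKM (ratio 1.12, bounds 1.01 and 1.24). Hif1a was lower with PRP, at 79.8 against 109.4 FPKM (ratio 0.730).

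Around the uptake members, Steap4, a metalloreductase of the family of Steap3, was lower like it, at 2.77 against 4.62 FPKM (ratio 0.600, bounds 0.492 and 0.730). Slc39a8, a metal importer, was higher, at 3.47 against 2.51 FPKM (ratio 1.38, bounds 1.20 and 1.59), and Snx3, which sorts recycling receptors, was lower, at 76.9 against 91.5 FPKM (ratio 0.841). For Slc11a2, the endosomal and apical iron transporter (2.13 against 1.77 FPKM, interval 0.997 to 1.46), and for Trf, which encodes transferrin (1.05 against 1.31 FPKM, interval 0.569 to 1.12), the difference was within counting error.

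Among heme transporters and scavengers, Slc48a1, the exporter of heme from endolysosomes, was higher with PRP at 20.7 against 15.6 FPKM (ratio 1.33, bounds 1.21 and 1.46). Hpx, which encodes the heme-binding plasma protein hemopexin, had 2.68 against 1.74 FPKM (ratio 1.54, bounds 1.05 and 2.27), and its receptor gene Lrp1 had 62.8 against 90.9 FPKM (ratio 0.692, bounds 0.679 and 0.704). Flvcr1, a heme exporter of the plasma membrane, had 2.66 against 2.30 FPKM, within counting error (0.959 to 1.39). By sign, 9 of the 12 heme synthesis genes tested were lower and 3 higher, with a median log2 difference of -0.09. Abcb10, a transporter of the inner mitochondrial membrane, was lower with 1.77 against 2.83 FPKM (ratio 0.626).

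The mitochondrial and cytosolic iron-sulfur list was even, with 10 of 20 genes higher and 10 lower. Ciao2b, a cytosolic assembly factor, had 24.2 against 16.1 FPKM (interval 1.30 to 1.74), and Slc25a37, which encodes the mitochondrial iron importer mitoferrin, 8.22 against 5.80 FPKM (ratio 1.42, bounds 1.28 and 1.57). Of the ferritin partners, the iron chaperone gene Pcbp1 had 54.3 and 53.4 FPKM (interval 0.953 to 1.09) and Pcbp2 23.1 and 21.7 FPKM (ratio 1.06). Fbxw7, a ubiquitin ligase subunit, had 5.09 and 4.50 FPKM (ratio 1.13), and Herc2, a ligase that acts on the protein of Ncoa4, was lower with 8.93 against 12.3 FPKM (0.691 to 0.763).

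**Figure D4:**
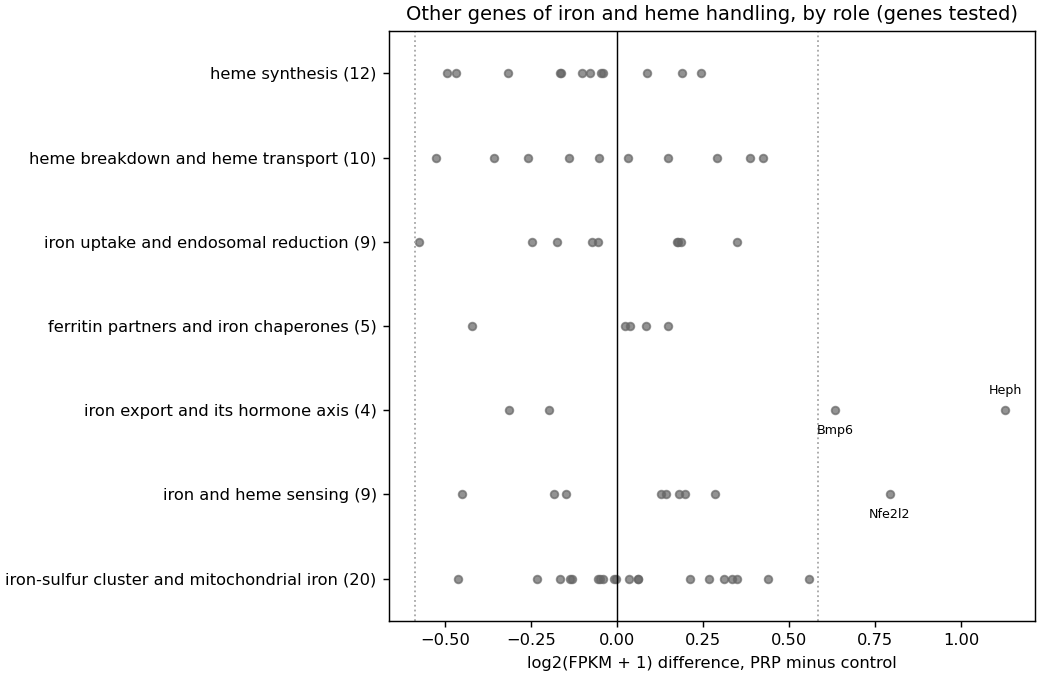
The log2(FPKM + 1) difference, PRP minus control, of the 69 other iron and heme genes tested, 1 point per gene in rows by role, with the number of genes in brackets and dotted lines at a 1.5-fold difference. The genes beyond a dotted line are named. Heph, Nfe2l2 and Bmp6 lie beyond the upper line, and no gene lies beyond the lower one.

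Markers of other cell types are given as levels only, and their part in the values of the iron genes was not tested. In RNA from whole cultures more cells of a type and more RNA per cell cannot be told apart. Per the study's methods, FAPs were sorted by flow cytometry from hind limb muscle after erythrocytes had been removed. Antibodies to CD31 and CD45, which mark endothelial cells and leukocytes, are among the listed reagents, and the gate itself is not given in the sources used here. Of the 9 erythroid markers found, none reached a mean of 1 FPKM, their sum was 0.402 FPKM with PRP and 0.610 FPKM in the control, and Hba-a2 and Hbb-bt were listed at 0 in both. The 12 macrophage and leukocyte markers summed to 11.6 and 11.4 FPKM, mostly from Lyz2 (4.91 and 7.57 FPKM) and Cd68 (4.56 and 2.31 FPKM), while the defining genes Ptprc and Adgre1 had at most 0.0543 FPKM. The 10 platelet markers summed to 2.47 and 3.70 FPKM, with Ppbp and Gp9 at 0 in both. The 10 endothelial markers summed to 9.95 and 6.09 FPKM, mostly from Kdr (4.23 and 1.499 FPKM) and Tek (4.73 and 3.56 FPKM), with Pecam1 at 0.188 and 0.0470 FPKM. The 9 myogenic markers found summed to 43.1 and 27.2 FPKM, mostly from Tnnc1 (21.2 and 8.75 FPKM) and Acta1 (15.1 and 11.1 FPKM). Pax7 and Myog were at 0 in both. Of the 4 myogenic markers tested, 2 were higher and 2 lower. The 10 adipocyte markers summed to 141.2 and 146.8 FPKM, mostly from Lpl, which was lower with PRP (67.4 and 83.3 FPKM). Of the 7 adipocyte markers tested, 5 were higher and 2 lower, with Pparg at 8.69 and 6.55 FPKM and Fabp4 at 40.7 and 33.6 FPKM.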

How the data were processed

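Per the labels and the study's methods, RNA was extracted with TRIzol, libraries were made with a stranded mRNA kit, reads were trimmed with fastp 0.23.4, aligned to mm10 with STAR 2.5.3a and counted per gene with featureCounts. The authors deposited FPKM. The FPKM formula, annotation release and strand setting are not given in the sources used here. Identifiers were matched to GENCODE M21 (GRCm38), where 41492 of 44291 had an entry. With its exon lengths, 26406 of 28160 genes above 0 (93.8%) gave whole reads in both libraries, within 0.001 reads. Intervals were exact (Clopper-Pearson for ratios, Poisson for levels) and cover counting error only, not PCR duplicates. Recovered reads served only for depth and intervals. Even read numbers were in excess (79.3% and 80.3% of genes with up to 8 reads), hence the division by 2.

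With 1 library per group no test between groups was possible. Members and lists were chosen with earlier results of these data known, and the lists were written from general knowledge. Named were all members, the 3 tested genes with the largest absolute log2 difference in each of 7 role lists, and 13 partners of members, some of which are not reported here. The alternatives were pseudocounts of 0.1 and 5, no filter or one at a mean FPKM of 5, rescaling to a common sum of 1000000, with or without mitochondrial and the 50 most abundant genes, centring on the median gene, and summing ferritin genes with their copies. The pseudocount stayed at 1 in the rescalings and so weighed less there. Procedures were tested on simulated data. Python 3.11.15, NumPy 2.4.6, pandas 2.3.3, SciPy 1.17.1 and matplotlib 3.10.9 were used.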

Additional observations from a re-analysis of the deposited data

How the results depend on the processing

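No paired analysis was possible because PRP and control have 1 library each, and leaving out a replicate was not possible either. Each member kept its direction under every alternative that gave it a value. With a pseudocount of 5, the log2 difference of Blvrb was 0.74 and that of Tfrc 0.45. The members' median of -0.07 was -0.0838 with a pseudocount of 0.1, -0.0378 with 5, -0.0994 without a filter, -0.0938 after rescaling to a common sum, -0.0750 after centring and -0.112 when mitochondrial and top genes were left out of the rescaling. With the filter at 5 FPKM it turned to 0.20, as 7 members were left, 4 higher and 3 lower. Past 1.5-fold there were 4 members (3 higher, and Steap3 lower) with a pseudocount of 0.1 and under both rescalings, and 2 with a pseudocount of 5, against 3. The number of members past 2-fold was 1 (Blvrb) instead of 0 with a pseudocount of 0.1 and under both rescalings. Both rescalings raised the values to a sum of 1000000, so the added 1 weighed less, as with a lower pseudocount. The effect of equal sums alone was not tested. For the other iron and heme genes the median of -0.002 was 0.0037 without a filter, 0.024 with the filter at 5, -0.017 after rescaling to a common sum, -0.0088 after centring and -0.033 without mitochondrial and top genes. Of these, 8 passed 1.5-fold with a pseudocount of 0.1, 1 with the filter at 5, and 7 under both rescalings, against 3. Over all genes, 1436 of 13401 passed 1.5-fold, against 2202 with a pseudocount of 0.1 and 522 with 5. With the filter at 5 it was 750 of only 7033 genes. After rescaling to a common sum 1949 passed, and 2048 without mitochondrial and top genes. For 2-fold the number was 379, against 739 and 113 with pseudocounts of 0.1 and 5, and 210 of the 7033 genes with the filter at 5. It was 596 after rescaling to a common sum and 638 without mitochondrial and top genes. Below about 1 FPKM (Slc40a1, Steap3) depth limits the precision of a ratio.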

Other observations

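The hairpin search named genes outside iron handling too, and their values are given without a hypothesis. Of the 17 genes with a hairpin in the 3′ UTR, 14 were tested, 8 of them higher and 6 lower with PRP, with a median log2 difference of 0.01. Pdcd4, a translation inhibitor, was lower, at 19.1 FPKM against 31.8 FPKM in the control (ratio 0.600, 95% counting bounds 0.557 and 0.647). Wdr1, which promotes actin disassembly, was higher, at 24.8 against 20.4 FPKM (ratio 1.22, bounds 1.16 and 1.27). Of the 6 genes with a hairpin in the 5′ UTR, 3 were tested, namely Fth1, Ftl1 and the copy Ftl1-ps1, of which 1 was higher and 2 lower. Pdcd4 and Wdr1 were chosen after their values were seen.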
